A study of Mus musculus with 8 samples.

Results

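This section describes 43 genes of central carbon metabolism in virus-specific mouse CD8 T cells lacking Blimp-1: enzymes and transporters of glycolysis, the pentose phosphate pathway and the tricarboxylic acid (TCA) cycle, with Hif1a as a regulator. Members were found by gene symbol in the platform annotation, and each was represented by its brightest probe over all arrays. Of the 43, 37 had a probe under their name, 34 passed the filter on dim probes (out of 8095 genes tested), and Slc16a1, Ldhb and Hif1a did not pass it. Slc16a3, Gpi1, Aldoc, Eno1, G6pdx and Pgd had no probe of that name and were not analysed here.

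The 8 samples were sorted from spleens of mice 8 days after infection with 200000 plaque-forming units of LCMV-Armstrong, a strain of lymphocytic choriomeningitis virus that mice clear, and hybridised to 1 array each. The 4 CKO samples came from mice with floxed Blimp-1 alleles and a Cre recombinase under granzyme B control (Blimp-1flox/flox x GranzymeB-cre+), so deletion depended on granzyme B expression. The 4 WT samples came from wild-type littermates, whose exact alleles were not stated. In both groups the cells were CD8 T cells that bound class I tetramers carrying viral peptides, DbGP33-41 and DbNP396-404. The series describes 4 independent samples per group and does not tie each to 1 animal, so the p-values reflect only how far these samples scatter, which may be partly technical.

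Glycolysis splits glucose into pyruvate. Its upper stage spends ATP to make triose phosphates, and its lower stage recovers ATP and NADH on the way to pyruvate. Pyruvate is then reduced to lactate or enters the mitochondria, where the TCA cycle oxidises its carbon. The pentose phosphate pathway branches off from glucose phosphate and supplies NADPH and ribose. Activated effector T cells are known for high glycolysis with lactate release, and memory T cells for a greater reliance on mitochondrial oxidation.

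Values are log2 signals between 5.33, the floor of the scale, and 15.15, and every array had a median of 6.15. Of 6 CD8 T cell markers, 5 had a probe, and their summed linear signal was 47706 to 54795 in CKO and 56302 to 61156 in WT samples. Cd4, Foxp3 and Cd40lg, markers of CD4 T cells, lay below the filter. Prdm1, which encodes Blimp-1, was read by 2 probes of opposite sign, at 6.29 to 6.65 in CKO and 7.51 to 8.07 in WT on the first, and at 8.65 to 9.27 in CKO and 5.59 to 6.11 in WT on the second. Where they lie relative to the deleted part is not stated in these sources, so neither checks the labels. The probe for 18S ribosomal RNA read 10.80 in CKO2 and 11.20 in WT2, and 12.47 or more elsewhere.

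Of the tested members grouped as lower glycolysis, 4 of 6 were higher in CKO cells, as were 2 of 3 pyruvate genes. Of 2 tested transporters and 12 TCA cycle members, 1 each was lower. No tested member of upper glycolysis or the pentose phosphate pathway passed. Across the 34 tested members, 6 rose (Tpi1, Pgk1, Pgam1, Pkm, Ldha and Pdk1), 2 fell (Slc2a3 and Idh2) and 26 did not pass, by limma with adjustment over all probes tested and a threshold of 0.05. Over all genes tested 4.73% were higher and 3.04% lower, against 17.6% and 5.88% of the members. The median difference, CKO minus WT, was 0.19 log2 over the members and -0.01 over all genes tested. CKO and WT values did not overlap in 14 of the 34 members, a pattern seen in 15.7% of genes tested. In bulk samples such as these, fewer cells expressing a gene and less RNA per cell cannot be told apart. With the replicate number as a block, 10 members rose and 2 fell, where 6.87% of all genes tested were higher and 5.69% lower. In samples numbered 1 and 2 alone no member passed in limma (7 were higher and 2 lower at an unadjusted p under 0.05), and 11 genes were higher and 8 lower in all; the member median was 0.20 there and 0.22 in samples 3 and 4 alone.

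**Figure D1:**
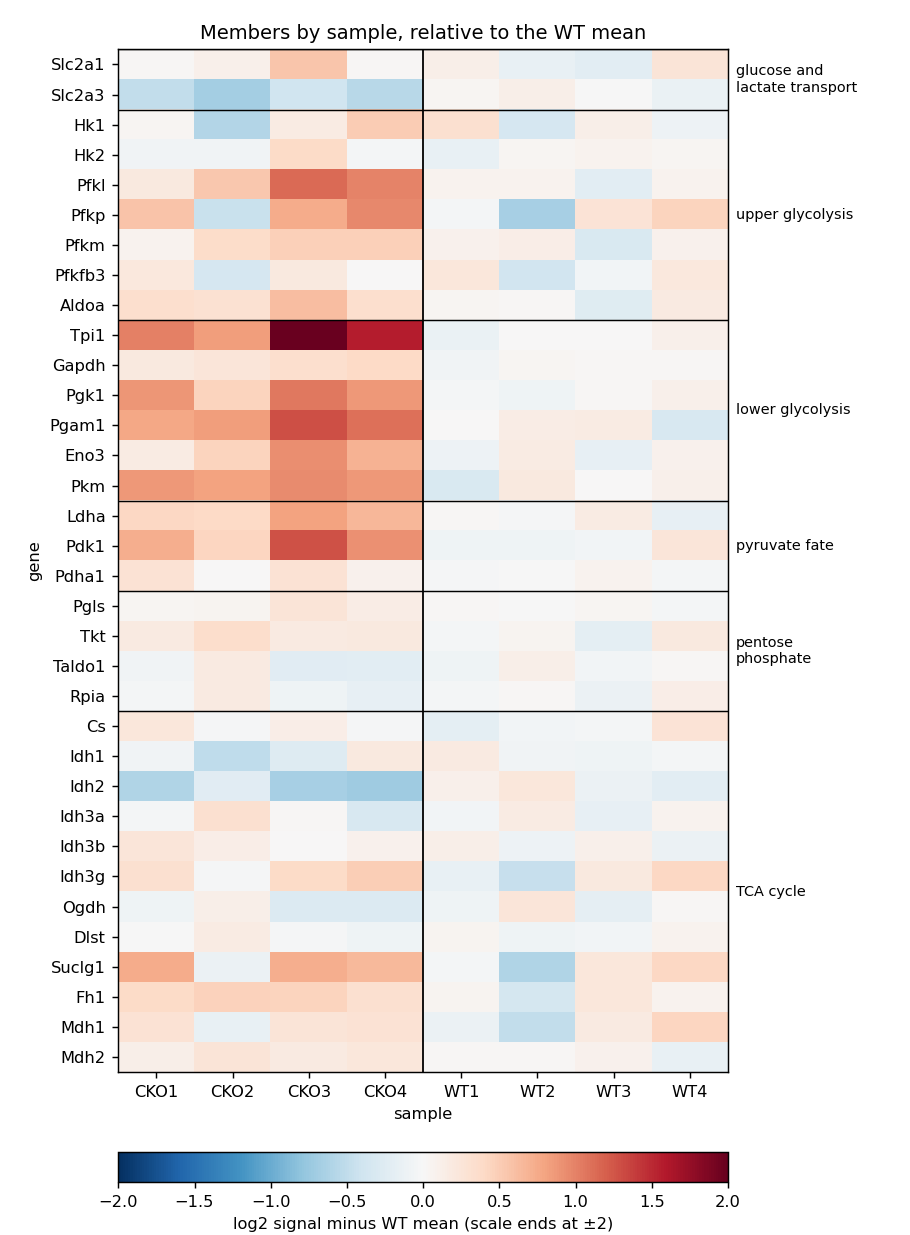
Log2 signal of each of the 34 tested members (down the page, by branch) in each sample (across), minus the mean of the WT samples; red is above and blue below that mean. The lower glycolysis block is red in all CKO samples, deepest for Tpi1 in CKO3 (log2 signal 13.02, WT mean 11.05), and Slc2a3 and Idh2 are blue there.

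Of 7 enzymes grouped as the lower stage, from triose phosphates to pyruvate, 6 were tested, 4 rose and none fell. The median difference of the 6 was 0.84 log2. Placing Tpi1 in this group was a choice, since it can also be counted with the upper stage. Tpi1, triosephosphate isomerase, which interconverts the products of the aldolase step, had log2 signals of 12.06, 11.89, 13.02 and 12.63 in CKO1 to CKO4, against 10.93, 11.05, 11.07 and 11.16 in WT1 to WT4. Every CKO sample lay above every WT sample, and the spread was wider in CKO (SD 0.52) than in WT (SD 0.10). The difference was 1.35 log2 (SE 0.22, limma adjusted p = 0.00602). It was 0.99 in samples 1 and 2 alone and 1.71 in samples 3 and 4 alone. A dimmer Tpi1 probe differed by 0.54 log2 in the same direction and did not pass (limma adjusted p = 0.316), but passed with the replicate block (limma adjusted p = 0.00937). On that probe CKO2 and WT2 were the lowest of their groups, at 6.77 and 6.45.

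Pgk1, phosphoglycerate kinase, makes the first ATP of the lower stage. Its log2 signals were 12.92, 12.50, 13.11 and 12.91 in CKO1 to CKO4, against 12.01, 11.96, 12.07 and 12.15 in WT1 to WT4. The groups did not overlap, and CKO2 was the CKO sample nearest to WT. Pgk1 rose by 0.81 log2 (SE 0.13, limma adjusted p = 0.00558). Its other probe was near the array median in both groups, at 6.02 to 6.24 in CKO and 5.85 to 6.21 in WT, and lay below the filter. Without both samples numbered 1, a setting added after the data were seen, the call for Pgk1 was lost (limma adjusted p = 0.0533).

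Pgam1, phosphoglycerate mutase, moves the phosphate group ahead of the enolase step. Its log2 signals were 9.69, 9.75, 10.21 and 10.02 in CKO1 to CKO4, against 8.93, 9.06, 9.08 and 8.60 in WT1 to WT4. The groups did not overlap, and Pgam1 rose 2.00-fold (SE 0.15 log2, limma adjusted p = 0.00401). Pkm, the pyruvate kinase that ends glycolysis with a further ATP, was at 12.47, 12.40, 12.55 and 12.47 in CKO1 to CKO4, against 11.30, 11.80, 11.61 and 11.71 in WT1 to WT4. The CKO samples were close to each other (SD 0.06, against 0.22 in WT). Pkm rose 1.82-fold, or 0.87 log2 (SE 0.12, limma adjusted p = 0.00258). Its difference was 0.89 in samples 1 and 2 alone and 0.85 in samples 3 and 4 alone. The sources do not say which splice form of Pkm the probe reads.

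Gapdh, which forms NADH in the middle of the pathway, and Eno3, an enolase best known from muscle, had positive differences that did not pass. The brightest Gapdh probe averaged 14.47 ± 0.09 in CKO and 14.18 ± 0.04 in WT (SD, n = 4 each), a difference of 0.29 log2 (limma adjusted p = 0.0757). The groups did not overlap on that probe. Its other probes passed narrowly, at 0.37 and 0.38 log2 (limma adjusted p = 0.0481 and 0.049). With the replicate block the second of them no longer passed (limma adjusted p = 0.0539). Gapdh lies near the top of the scale, and the sources do not say whether these probes saturate. Eno3 was at 7.01, 7.29, 7.77 and 7.53 in CKO1 to CKO4, against 6.75, 7.01, 6.68 and 6.93 in WT1 to WT4. CKO1 and WT2 met at 7.01, so the groups touched. The Eno3 difference of 0.55 log2 (limma adjusted p = 0.0666) passed with the replicate block (limma adjusted p = 0.0398).

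**Figure D2:**
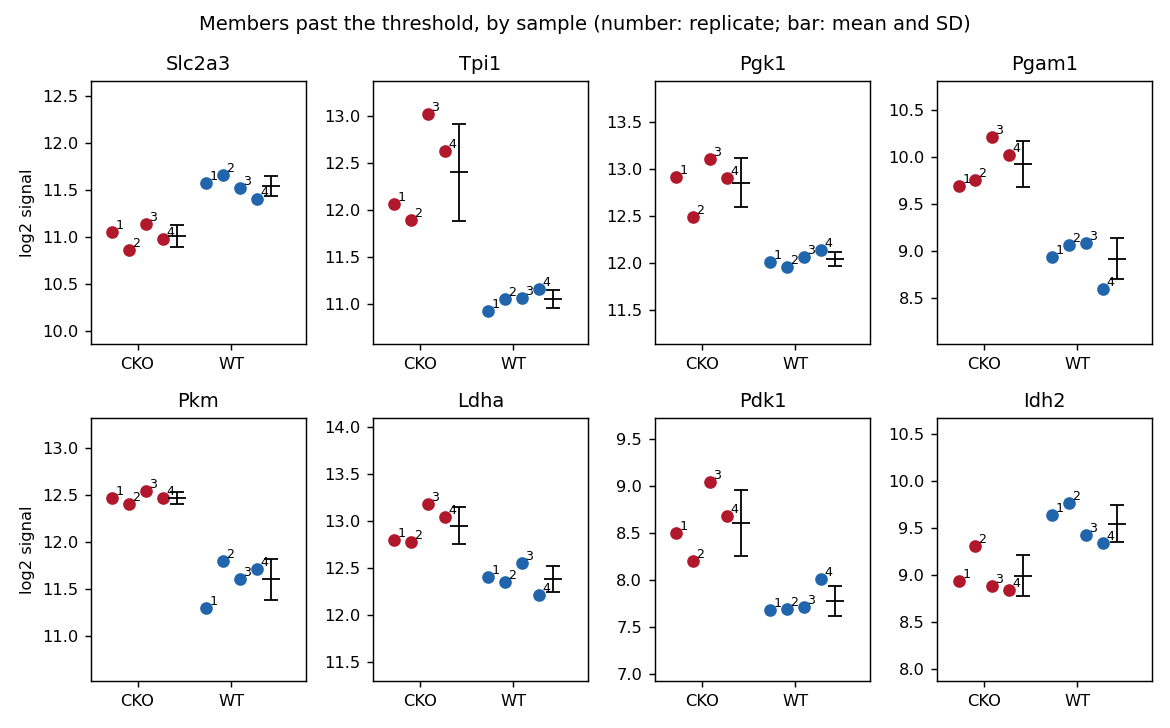
Log2 signal by sample of the 8 members past the threshold, CKO left and WT right in each panel; points carry the replicate number, and the bar beside them gives the mean and SD (n = 4 each). All panels span 2.8 log2 units. In none of the 8, chosen by the test on these same values, do the groups overlap, a pattern seen in 15.7% of genes tested.

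The promoters of the members that rose are shown, members chosen by the test on these same values. They were searched for the letters bound by hypoxia-inducible factor (HIF), by E box factors such as Myc, and by Blimp-1. Whether these genes share a regulator was not tested. Printed are the 250 bases before the annotated starts of Tpi1, Pgk1, Pgam1 and Pkm and before the first listed start of Ldha and of Pdk1, 5′ to 3′, from RefSeq on build GRCm38.p6. Capitals mark matches on either strand to ACGTG or GCGTG (the core of HIF sites), CACGTG (the E box, which holds ACGTG on both strands) and GNGAAAG (a Blimp-1 core).
Tpi1, chr6:124814159-124814408, minus strand: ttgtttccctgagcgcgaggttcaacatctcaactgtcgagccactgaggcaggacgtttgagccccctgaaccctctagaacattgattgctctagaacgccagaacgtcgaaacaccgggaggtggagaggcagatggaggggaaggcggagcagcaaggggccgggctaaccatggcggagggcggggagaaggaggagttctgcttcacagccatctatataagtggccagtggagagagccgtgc
Pgk1, chrX:106186850-106187099, plus strand: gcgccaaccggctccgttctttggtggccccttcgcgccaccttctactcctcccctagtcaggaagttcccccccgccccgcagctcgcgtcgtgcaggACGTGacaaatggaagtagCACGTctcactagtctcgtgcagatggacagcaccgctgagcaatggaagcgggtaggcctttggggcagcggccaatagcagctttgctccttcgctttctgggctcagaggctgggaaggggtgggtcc
Pgam1, chr19:41911621-41911870, plus strand: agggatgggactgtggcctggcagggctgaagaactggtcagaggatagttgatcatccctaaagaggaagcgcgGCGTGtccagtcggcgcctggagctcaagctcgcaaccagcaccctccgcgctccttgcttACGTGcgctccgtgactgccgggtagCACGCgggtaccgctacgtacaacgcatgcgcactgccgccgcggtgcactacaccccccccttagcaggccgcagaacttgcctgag
Pkm, chr9:59656326-59656575, plus strand: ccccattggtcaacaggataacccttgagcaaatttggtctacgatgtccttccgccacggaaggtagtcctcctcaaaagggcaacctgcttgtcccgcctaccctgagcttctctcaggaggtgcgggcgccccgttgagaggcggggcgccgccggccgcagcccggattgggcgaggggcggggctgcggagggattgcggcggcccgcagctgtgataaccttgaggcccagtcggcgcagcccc
Pkm, chr9:59656977-59657226, plus strand: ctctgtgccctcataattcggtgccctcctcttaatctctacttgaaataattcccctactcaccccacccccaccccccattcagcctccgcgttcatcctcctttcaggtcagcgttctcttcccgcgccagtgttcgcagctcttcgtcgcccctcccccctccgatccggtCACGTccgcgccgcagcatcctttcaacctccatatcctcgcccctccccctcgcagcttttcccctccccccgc
Ldha, chr7:46845554-46845803, plus strand: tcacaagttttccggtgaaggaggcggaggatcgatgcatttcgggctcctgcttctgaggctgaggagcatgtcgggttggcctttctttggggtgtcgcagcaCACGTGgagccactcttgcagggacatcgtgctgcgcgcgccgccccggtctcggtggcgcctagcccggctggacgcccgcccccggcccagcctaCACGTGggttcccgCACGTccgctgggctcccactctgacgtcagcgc
Pdk1, chr2:71872974-71873223, plus strand: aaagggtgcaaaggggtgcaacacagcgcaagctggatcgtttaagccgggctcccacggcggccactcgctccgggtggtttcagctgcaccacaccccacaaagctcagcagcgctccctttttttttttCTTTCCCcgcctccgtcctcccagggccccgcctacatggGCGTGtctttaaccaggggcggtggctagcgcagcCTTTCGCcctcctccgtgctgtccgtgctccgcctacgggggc

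Pgk1 held ACGTG at 2 places, 150 and 131 bases before the start. Pgam1 held 1 ACGTG and 2 GCGTG matches, and Pkm 1 ACGTG before the second of its starts. The Ldha window had 5 ACGTG matches, 4 of them in 2 E boxes. Tpi1, the member with the largest rise, had none of these letters in its window. The Pdk1 window held 1 GCGTG and 2 GNGAAAG matches, and none of the other windows printed held GNGAAAG. Before the second start of Ldha, which is not printed, stood 1 GCGTG, and before that of Pdk1 none of these letters. Of 32 tested members with an entry in the promoter table, 28 (87.5%) held ACGTG or GCGTG before at least 1 start, against 61.3% of the 6655 tested genes with an entry and 41.5% of all 27025 genes in the table. Of the 6 members that rose, 5 (83.3%) held ACGTG or GCGTG before at least 1 start. CACGTG was found in 12.5% of the 32 members and 10.1% of tested genes. GNGAAAG was found in 18.8% of the 32 members and 23.5% of tested genes. Genes with several starts have more windows in which to match. These shares describe letters and not binding, and no match says only that the letters are not in that window.

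At the fork after pyruvate, the transcripts for lactate formation and for the kinase that holds pyruvate back from the mitochondria were higher in CKO cells. Ldha, the lactate dehydrogenase subunit that favours pyruvate reduction, was at 12.80, 12.78, 13.18 and 13.04 in CKO1 to CKO4, against 12.41, 12.35, 12.55 and 12.22 in WT1 to WT4. The lowest CKO value stood above the highest WT value by less than the WT range. Ldha rose 1.48-fold, or 0.57 log2 (SE 0.12, limma adjusted p = 0.0193). Its call was lost without CKO3, CKO4, WT1 or WT4 (limma adjusted p = 0.0678, 0.0598, 0.0545 and 0.0522). Ldhb, the subunit of the opposite preference, lay around the array median, at 5.69 to 6.43 in CKO and 5.91 to 6.07 in WT. Its mean over all arrays was below the filter, so it was not tested.

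Pdk1, a pyruvate dehydrogenase kinase that inactivates the enzyme by phosphorylation, was at 8.50, 8.20, 9.04 and 8.68 in CKO1 to CKO4, against 7.68, 7.69, 7.71 and 8.01 in WT1 to WT4. CKO3 was highest, and only WT4 approached the CKO range. Pdk1 rose 1.78-fold, or 0.83 log2 (SE 0.17, limma adjusted p = 0.0159), a call lost without WT1 (limma adjusted p = 0.0536) and without both samples numbered 1 (limma adjusted p = 0.088). Its target Pdha1, the catalytic subunit of pyruvate dehydrogenase, averaged 10.16 ± 0.14 in CKO (SD, n = 4) and lay between 9.96 and 10.07 in WT samples, and the difference of 0.17 log2 did not pass (95% interval -0.05 to 0.38, limma adjusted p = 0.385). Among 4 tested genes of a further list on pyruvate handling, Pdk3, another kinase of the same family, rose 1.39-fold (limma adjusted p = 0.0248), and none fell. Pdk3 was at 9.39, 9.40, 9.63 and 9.52 in CKO1 to CKO4, against 8.86, 8.90, 9.15 and 9.13 in WT1 to WT4. Its call was lost without CKO3, CKO4, WT1 or WT2.

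The upper stage of glycolysis phosphorylates glucose and splits it. With Tpi1 counted in the lower stage, none of its 7 tested members passed, although all 7 differences were positive (47.3% of all genes tested were). The branch median was 0.35 log2. The hexokinases Hk1 and Hk2, which trap glucose in the cell, differed by 0.03 and 0.05 log2, with 95% intervals of -0.46 to 0.52 and -0.22 to 0.32. Pfkfb3, which makes the activator of phosphofructokinase, differed by 0.02 (-0.35 to 0.38).

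The 3 phosphofructokinase genes, which catalyse the committed step, had larger values. Pfkl, the liver type, was at 9.26, 9.61, 10.20 and 10.06 in CKO1 to CKO4, against 9.14, 9.13, 8.85 and 9.14 in WT1 to WT4. The groups did not overlap, but CKO1 was only slightly above WT. The difference of 0.72 log2 just missed the threshold (SE 0.19, limma adjusted p = 0.051) and passed with the replicate block (limma adjusted p = 0.0365); it was 0.30 in samples 1 and 2 alone and 1.14 in samples 3 and 4 alone. Pfkm, the muscle type, differed by 0.35 log2 (limma adjusted p = 0.155). Pfkp, the platelet type, was at 9.23, 8.23, 9.41 and 9.62 in CKO1 to CKO4, against 8.62, 8.00, 8.93 and 9.12 in WT1 to WT4. On this probe the groups overlapped, and CKO2 and WT2 were the lowest of each group. The Pfkp difference of 0.45 log2 did not pass (limma adjusted p = 0.48), passed with the replicate block (limma adjusted p = 0.0202), and was opposed by 2 dimmer Pfkp probes at -0.04 and -0.05. Aldoa, the aldolase that splits the hexose, averaged 12.28 ± 0.15 in CKO and 11.88 ± 0.18 in WT (SD, n = 4 each; difference 0.40 log2, limma adjusted p = 0.0787).

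**Figure D3:**
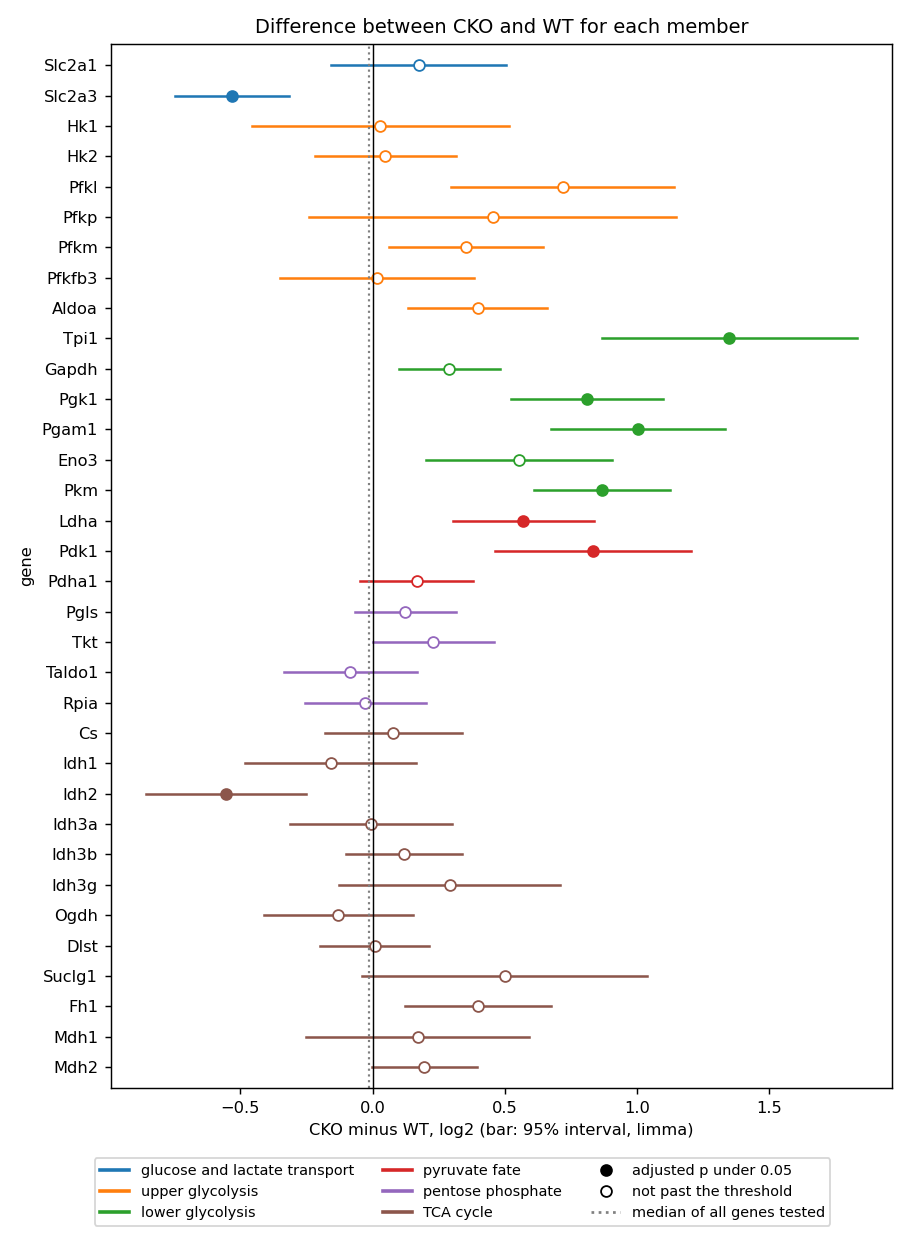
Difference between CKO and WT in log2 (across) with its 95% interval for each tested member (down the page), coloured by branch; filled points passed the threshold and the dotted line is the median of all genes tested, -0.01. Lower glycolysis runs from 0.29 to 1.35, while the pentose phosphate members lie between -0.08 and 0.23.

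Of the 2 tested transporters, Slc2a3 fell and Slc2a1 did not pass. Slc2a3, the high-affinity glucose transporter GLUT3, was at 11.05, 10.86, 11.14 and 10.98 in CKO1 to CKO4, against 11.57, 11.65, 11.52 and 11.40 in WT1 to WT4. All CKO samples lay below all WT samples. Slc2a3 fell by 0.53 on the log2 scale (SE 0.10, limma adjusted p = 0.0108), to 69.2% of the WT signal. Without both samples numbered 1, a setting added after the data were seen, its call was lost (limma adjusted p = 0.0739), and in samples 3 and 4 alone it was -0.41 (limma adjusted p = 0.081). Slc2a1, the transporter GLUT1, averaged 9.36 ± 0.25 in CKO and 9.18 ± 0.22 in WT (SD, n = 4 each; difference 0.17 log2, 95% interval -0.16 to 0.51, limma adjusted p = 0.587). Slc16a1, a lactate and pyruvate carrier, lay near the floor, at 5.62 to 5.98 in CKO and 5.71 to 5.86 in WT, and was not tested. Slc2a6, a further member of the glucose transporter family from a list of other pathway genes, was at 7.30, 7.62, 7.98 and 7.94 in CKO1 to CKO4, against 6.14, 6.53, 6.32 and 6.58 in WT1 to WT4. It rose 2.49-fold (SE 0.16 log2, limma adjusted p = 0.0017), from WT values near the array median.

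Of 15 tested genes of that list on glycolysis and glucose handling, Slc2a6 and Pgm1 rose and none fell. Pgm1, a phosphoglucomutase that links glycogen to glycolysis, was at 11.18, 10.59, 11.26 and 11.11 in CKO1 to CKO4, against 10.06, 10.16, 10.01 and 10.41 in WT1 to WT4. The groups did not overlap, and the rise was 1.83-fold (limma adjusted p = 0.00952), a call lost without both samples numbered 1 (limma adjusted p = 0.0805). Eno2, an enolase best known from neurons, differed by 0.45 log2 (limma adjusted p = 0.227, and 0.0331 with the replicate block).

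None of the 4 tested pentose phosphate members passed. Pgls, the lactonase of the oxidative part, differed by 0.12 log2 (95% interval -0.07 to 0.32). Tkt, transketolase, averaged 12.65 ± 0.08 in CKO and 12.42 ± 0.16 in WT (SD, n = 4 each; limma adjusted p = 0.24). Taldo1, transaldolase, differed by -0.08 (-0.33 to 0.17), and Rpia, the ribose phosphate isomerase, by -0.03 (-0.26 to 0.20). The rate-limiting G6pdx and its follower Pgd are among the members without a probe of that name. Of 5 other tested genes of this pathway, H6pd fell and none rose. H6pd, which makes NADPH inside the endoplasmic reticulum, was at 8.27, 8.02, 8.23 and 8.30 in CKO1 to CKO4, against 8.56, 9.36, 8.83 and 9.32 in WT1 to WT4. It fell by 0.81 on the log2 scale (limma adjusted p = 0.0217), a call lost without CKO3 or WT4 and without both samples numbered 2. Tktl1, a transketolase-like gene, was at 5.59, 6.41, 6.04 and 5.83 in CKO1 to CKO4, against 6.07, 8.49, 7.63 and 7.63 in WT1 to WT4. WT1 lay within the CKO range, and Tktl1 did not pass (limma adjusted p = 0.0638), although it did with the replicate block (limma adjusted p = 0.00508).

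Of 12 TCA cycle members, all tested, Idh2 fell and none rose, and the branch median was 0.10 log2. Idh2, the mitochondrial isocitrate dehydrogenase that uses NADP, was at 8.94, 9.31, 8.88 and 8.83 in CKO1 to CKO4, against 9.64, 9.77, 9.42 and 9.34 in WT1 to WT4. CKO2 and WT4 nearly met. Idh2 fell by 0.55 on the log2 scale (SE 0.14, limma adjusted p = 0.0387), to 68.2% of the WT signal. With the replicate block the limma adjusted p of Idh2 was 0.00666. Its call was lost without CKO1, CKO3, CKO4, WT1, WT2 or WT3 (limma adjusted p = 0.0672 to 0.13). The cytosolic Idh1 differed by -0.16 (95% interval -0.48 to 0.16), and Idh3a, Idh3b and Idh3g, the subunits of the NAD-dependent enzyme, by -0.01, 0.12 and 0.29.

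Fh1, fumarase, averaged 10.56 ± 0.07 in CKO and 10.16 ± 0.25 in WT (SD, n = 4 each), without overlap and without passing (difference 0.40 log2, limma adjusted p = 0.0918). Suclg1, a subunit of succinate-CoA ligase, was at 9.38, 8.52, 9.36 and 9.28 in CKO1 to CKO4, against 8.60, 8.04, 8.86 and 9.04 in WT1 to WT4. CKO2 fell within the WT range, and CKO2 and WT2 were again the lowest of each group. The difference of 0.50 log2 did not pass (limma adjusted p = 0.285) but did with the replicate block (limma adjusted p = 0.0202), and a second Suclg1 probe differed by -0.01. Cs, citrate synthase, Ogdh and Dlst of the oxoglutarate dehydrogenase complex, and the malate dehydrogenases Mdh1 and Mdh2 differed by 0.08, -0.13, 0.01, 0.17 and 0.20. A dimmer Mdh1 probe had the opposite sign, at -0.12 (limma adjusted p = 0.62). Of 9 other tested genes of the TCA cycle and linked enzymes, none passed in limma with or without the replicate block.

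Hif1a, the oxygen-regulated subunit of HIF and a known activator of glycolytic genes, lay near the floor in both groups, at 5.58 to 6.04 in CKO and 5.70 to 5.77 in WT. At this level a silent gene and a failing probe look the same. Of 7 other tested genes of the HIF pathway, Egln3 rose and none fell. Egln3, an oxygen-sensing prolyl hydroxylase that is itself a HIF target, lay between 6.90 and 7.61 in CKO and between 6.11 and 6.43 in WT samples. It rose 1.88-fold without overlap (SE 0.15 log2, limma adjusted p = 0.00719), from WT values near the array median.

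Known HIF targets outside glycolysis went both ways: of 7 tested, Ndrg1 rose and Bhlhe40 fell. Ndrg1, a stress-responsive gene, averaged 7.78 ± 0.19 in CKO and 7.02 ± 0.13 in WT (SD, n = 4 each; 1.70-fold, limma adjusted p = 0.00474). Bhlhe40, a transcription factor, averaged 11.32 ± 0.12 in CKO and 12.09 ± 0.14 in WT (SD, n = 4 each), and fell by 0.76 on the log2 scale (limma adjusted p = 0.00289). Vegfa, the growth factor of blood vessels, differed by 0.06, with means near the array median (6.22 in CKO and 6.16 in WT). Ddit4, an inhibitor of mTOR signalling, differed by 1.26 log2 with overlapping groups (limma adjusted p = 0.0821, and 0.0232 with the replicate block), and Mxi1, a Myc antagonist, by -0.58 (limma adjusted p = 0.0545, and 0.0367 with the block). Of 10 tested regulators of T cell metabolism, Irf4 rose and none fell. Irf4, a transcription factor induced through the T cell receptor, was at 8.84, 8.89, 9.21 and 8.87 in CKO1 to CKO4, against 8.10, 8.65, 8.22 and 8.48 in WT1 to WT4. It rose by 0.59 log2 (limma adjusted p = 0.0332), a call lost without CKO1, CKO3, CKO4, WT1, WT3 or WT4. Myc, a driver of glycolytic genes in activated T cells, differed by 0.02.

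**Figure D4:**
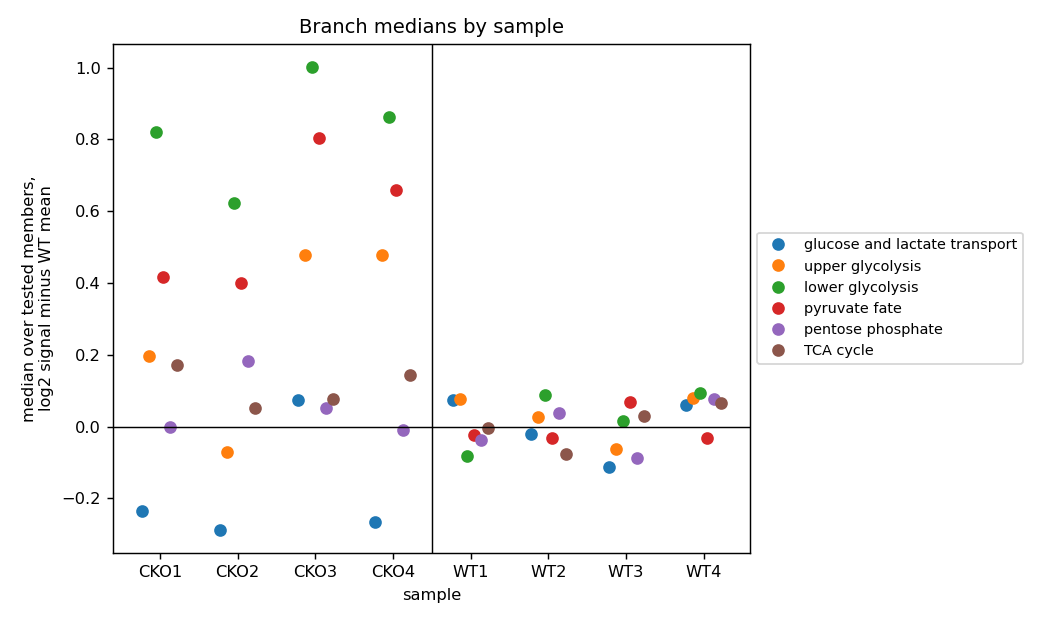
Median over the tested members of each branch in each sample, as log2 signal minus the WT mean of each gene; colours mark the branches and points are spread sideways for legibility. Lower glycolysis lies at 0.62 to 1.00 in the CKO samples and at -0.08 to 0.09 in the WT samples, and the TCA cycle between -0.08 and 0.17 throughout.

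Values varied among the CKO samples. All 6 members that rose were highest in CKO3. Relative to the WT mean, the lower glycolysis median was 0.82, 0.62, 1.00 and 0.86 in CKO1 to CKO4, and that of the pyruvate genes 0.42, 0.40, 0.80 and 0.66. The upper glycolysis median was 0.20, -0.07, 0.48 and 0.48, against -0.06 to 0.08 in WT, so that CKO2 lay just below the WT samples. An interferon-stimulated list, with 7 of 12 genes tested, had medians relative to the WT mean of -0.19, 0.11, 0.90 and 1.61 in CKO1 to CKO4, against -0.16 to 0.17 in WT. Of these genes 2 rose and none fell. Usp18, a protease that removes ISG15 and dampens interferon signalling, was at 8.95, 9.53, 10.02 and 10.52 in CKO1 to CKO4, against 8.37, 8.33, 8.07 and 8.02 in WT1 to WT4 (2.95-fold, limma adjusted p = 0.00936). Ly6e rose by 0.43 log2 (limma adjusted p = 0.0488), a call lost without CKO2, CKO3, CKO4, WT1, WT2 or WT3. The part of interferon signalling in the member differences was not tested. A proliferation list, with 12 of 15 genes tested, spanned -0.12 to 0.16 in CKO and -0.32 to 0.33 in WT.

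Transcripts of other cells varied between samples as well. Of 5 erythroid markers 3 had a probe, and their summed linear signal was 13552, 437.2, 212.9 and 317.4 in CKO1 to CKO4, against 4531 to 13488 in WT. CKO1 was the highest of all 8 samples, and the other CKO samples lay below all WT samples. Of 6 macrophage and monocyte markers 4 had a probe, with a summed signal of 338 to 1829 in CKO and 341 to 791 in WT; Itgam and Cd14 were below the filter, and CKO4 was highest. Dendritic cell markers (6 of 6 with a probe) summed to 1035 to 1413 in CKO and 1179 to 3014 in WT; Itgax, which T cells can also express, was the brightest of them. B cell (4 of 6), neutrophil (5 of 6) and natural killer cell markers (4 of 4) summed to 450 to 525, 619 to 1000 and 880 to 1459 in CKO. In WT they summed to 488 to 807, 735 to 1998 and 1106 to 2109. All these sums include markers below the filter. Of the natural killer cell markers, Eomes, which T cells can also express, was the brightest by its mean, at 9.34 to 10.26 in CKO and 9.24 to 10.14 in WT. Klrb1c was at 6.63 to 6.77 in CKO and 6.72 to 9.95 in WT, and Ncr1 and Klra8 lay below the filter. Among all these markers and those of CD8 T cells, Camp, a neutrophil gene, fell by 0.79 on the log2 scale (limma adjusted p = 0.00345), and no other passed without the replicate block. With the block, limma also called the dendritic cell marker Itgax (-1.21 log2, adjusted p = 0.0681 without and 0.024 with the block), the natural killer cell marker Klrb1c (-1.96, 0.0885 and 0.0283), the erythroid Hba-a1 (-3.78, 0.109 and 0.025) and the T cell marker Cd3e (-0.38, 0.0982 and 0.0283). The part of these cells in the member differences was not tested. Hk1, Pfkp, Pfkfb3, Pgk1, Idh3g, Suclg1 and Mdh1 were lowest in both CKO2 and WT2, 20.6% of tested members against 12.6% of all genes tested, and the part of the low 18S signal in these values was not tested. The sources do not say whether probes for abundant glycolytic transcripts also bind near-identical processed copies.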

How the data were processed

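Each of the 4 CKO and 4 WT samples was read on a 1-colour expression array. Per the labels' protocols, RNA was amplified and biotinylated with an Illumina kit. The authors deposited log2 values of 24048 probes, already summarised by probe. Sorted values of the 8 arrays differed by at most 0.084 log2 at any rank, so they had been normalized between arrays before deposit. How this and any background correction were done is not stated. Precision is limited by the number of arrays.

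Probes were named from GEO's platform table: 19397 carried 1 symbol, 0 several, and 4651 were unnamed. The gene listed for the 18S control probe was dropped. The filter kept 11991 probes whose mean exceeded 6.12, the median of all probe means; 5 values among them were missing. The test was two-sided, by limma 3.58.1 (lmFit, eBayes) under R 4.3.3, and p-values were adjusted after Benjamini-Hochberg across the probes kept. Differences are CKO minus WT, and SE is the moderated standard error. The limma fit without the block was tested on simulated arrays with known changes. Every member is given, those past the threshold with values per sample, and in the other pathway lists all past the threshold are named. Eno2, Tktl1, Ddit4, Mxi1, Vegfa and Myc were chosen after their values were seen. Members, lists, branches and motifs were chosen with earlier results of these data known. Motifs were searched in RefSeq promoter windows of GRCm38.p6.

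CKO and WT samples share the numbers 1 to 4. After subtracting group means, the correlation across probes within a number was 0.319, 0.468, 0.178 and 0.224, each above 0.1. The numbers were therefore treated as pairs in an alternative fit blocked on the number. The main calls come from the fit without a block. CKO4 with WT3 and CKO3 with WT4 reached 0.254 and 0.263, above the values within numbers 3 and 4. The pairing was inferred from these same values and is uncertain for those numbers, so the blocked fit is an alternative only. Results of the fit blocked on the number are printed beside calls that it changed. Alternatives covered filters, probe choice, scaling, background, variance model and left-out samples.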

Additional observations from a re-analysis of the deposited data

Results flagged for a closer look

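In groups of 4 samples, 1 sample stood apart from the other 3 by Dixon's ratio in 12 of the 84 groups examined. These were the CKO and the WT values of the 34 tested members and of the other pathway genes past the threshold. Chance gives about 5% by the rule. The share over all genes tested was not computed, so the count cannot be called particular to these genes. Values are log2 signals, and no cause was tested. CKO3 was high for Slc2a1 (9.73, the others 9.20 to 9.28), Hk2 (10.37, the others 9.92 to 9.96), Aldoa (12.50, the others 12.18 to 12.22) and Irf4 (9.21, the others 8.84 to 8.89). CKO2 was low for Suclg1 (8.52, the others 9.28 to 9.38) and Mdh1 (8.52, the others 8.92 to 8.96), and high for Tkt (12.77, the others 12.61 to 12.62). WT3 was low for Pfkl (8.85, the others 9.13 to 9.14) and Pfkm (7.37, the others 7.75 to 7.80). WT1 was low for Gapdh (14.12, the others 14.20 to 14.21) and high for Idh1 (7.0, the others 6.74 to 6.78). WT4 was high for Pdk1 (8.01, the others 7.68 to 7.71).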

How the results depend on the processing

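None of the 8 called members, nor any of the counts, changed direction under the alternatives run, but 10 members that did not pass changed sign. Leaving out 1 sample at a time gave differences of -0.0426 to 0.0416 log2 for Dlst, -0.128 to 0.233 for Hk1, -0.0607 to 0.0906 for Hk2, -0.112 to 0.102 for Idh3a, -0.111 to 0.134 for Pfkfb3 and -0.0971 to 0.0171 for Rpia. In samples 1 and 2 alone the difference was -0.26 for Hk1, -0.0168 for Hk2, 0.092 for Idh3a, 0.0706 for Rpia and 0.0403 for Taldo1. In samples 3 and 4 alone it was -0.0642 for Cs, -0.0677 for Dlst, 0.0287 for Idh1 and -0.0373 for Mdh1. Without both samples numbered 1 it was -0.0335 for Cs, and without both numbered 2 -0.0692 for Dlst; both settings were chosen after the data were seen.

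With the replicate block, 10 members were higher and 2 lower, against 6 and 2 without it. Over all genes tested, 556 were higher and 461 lower with the block, against 383 and 246 without it. Leaving out 1 sample at a time gave 4 to 8 members higher, 1 to 2 lower, a member median of 0.15 to 0.28 log2, and 190 to 419 genes higher and 101 to 340 lower in all. Samples 1 and 2 alone gave 0 members higher and 0 lower in limma (7 and 2 at an unadjusted p under 0.05), and 11 genes higher and 8 lower in all. Samples 3 and 4 alone gave 9 members higher and 1 lower, with 516 genes higher and 407 lower in all. Without both samples numbered 1, 4 members were higher and 0 lower in limma (12 and 2 at an unadjusted p under 0.05), with 181 genes higher and 97 lower in all. These settings use fewer samples; other causes were not tested. Tpi1, Pgam1 and Pkm kept their calls in 19 of 20 settings, Ldha in 14 and Idh2 in 12.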
